A study of Mus musculus with 6 samples.

Results

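Transcripts that encode the fatty acid oxidation route, together with genes driven by peroxisome proliferator-activated receptors (PPARs), were described in epithelial cells of the large intestine that lack or carry Hdac3. Members were taken from a list of 34 genes, each read from the probe set that names that gene alone and has the highest mean over the arrays. Of the 34, 31 were measured, among 19533 genes in all. Acsl3 is only on a probe set that also names another gene, and Acsl1 and Ucp2 were not analysed here. The 31 comprise 18 mitochondrial genes, 2 acyl-CoA synthetases, 6 peroxisomal genes and 5 regulators and other PPAR targets.

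All mice were germ-free, that is without any microbiota, and of strain C57BL/6. The controls were 3 HDAC3FF mice, whose Hdac3 alleles are floxed, and the knockouts were 3 HDAC3ΔIEC mice, in which Hdac3 is deleted in intestinal epithelial cells. Live cells that carry the epithelial surface protein EpCAM were taken from each mouse, and their total RNA was read on 1 Affymetrix array per mouse. The sources used here give neither the promoter that drives the deletion nor the age and sex of the mice. The question was how transcripts differ between the genotypes when no bacteria are present. Hdac3 itself was at 55.3% of the control level (log2 fold change -0.86 ± 0.17, SE, limma adjusted p = 0.0937), with every HDAC3ΔIEC array below every HDAC3FF array. Where on Hdac3 the probes lie relative to the deletion is not known here, and probes beyond it would not test the labels.

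Long-chain fatty acids are first joined to coenzyme A, then carried into mitochondria as carnitine esters, and there shortened by repeated rounds of dehydrogenation, hydration, a second dehydrogenation and thiolysis. Peroxisomes shorten very long chains by a similar route and hand the products on as carnitine esters. PPARs are nuclear receptors that bind fatty acids, pair with retinoid X receptors and switch on genes of this route. HDAC3 is the deacetylase of the NCoR and SMRT corepressor complexes, which nuclear receptors recruit, and fatty acids, above all butyrate from bacteria, are a major fuel of colonocytes.

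Promoter sequences of 5 members are shown: Hadhb for the promoter it shares with Hadha, Plin2 and Etfa as the members closest in letters to a PPAR response element, and Pdk4 and Crot as called members without such letters. They are from RefSeq, assembly GRCm38.p6, and each gives the 250 bases before the annotated start site on the gene's own strand, 5′ to 3′. Hadha and Hadhb, which encode both subunits of the mitochondrial trifunctional protein, start 273 bases apart on opposite strands of chromosome 5 and point away from each other. The Hadhb window (chr5:30155003-30155252, + strand) therefore holds their shared promoter, and its 228 capitals are the bases that lie in the 300-base Hadha window as well. In the other 4, capitals mark the 13 bases closest to the repeat described next: Plin2 at chr4:86670060-86670309, Etfa at chr9:55512244-55512493, Pdk4 at chr6:5496279-5496528 and Crot at chr5:8997147-8997396, all on the - strand.
Hadhb: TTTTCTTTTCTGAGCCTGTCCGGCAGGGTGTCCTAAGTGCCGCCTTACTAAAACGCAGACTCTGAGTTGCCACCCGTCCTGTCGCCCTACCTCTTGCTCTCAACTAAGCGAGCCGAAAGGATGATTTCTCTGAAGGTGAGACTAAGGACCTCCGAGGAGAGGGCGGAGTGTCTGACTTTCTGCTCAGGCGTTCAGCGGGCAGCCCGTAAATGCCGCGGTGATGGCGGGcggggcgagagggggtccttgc
Plin2: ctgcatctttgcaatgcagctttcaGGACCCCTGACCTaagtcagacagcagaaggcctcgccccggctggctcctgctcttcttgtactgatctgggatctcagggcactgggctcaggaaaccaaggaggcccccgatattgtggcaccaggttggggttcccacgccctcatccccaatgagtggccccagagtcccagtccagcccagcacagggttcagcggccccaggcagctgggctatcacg
Etfa: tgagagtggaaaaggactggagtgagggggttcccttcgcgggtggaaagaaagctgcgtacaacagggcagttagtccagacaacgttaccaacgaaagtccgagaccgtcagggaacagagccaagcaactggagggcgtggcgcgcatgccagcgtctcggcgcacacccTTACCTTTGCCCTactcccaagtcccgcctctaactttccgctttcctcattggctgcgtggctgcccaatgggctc
Pdk4: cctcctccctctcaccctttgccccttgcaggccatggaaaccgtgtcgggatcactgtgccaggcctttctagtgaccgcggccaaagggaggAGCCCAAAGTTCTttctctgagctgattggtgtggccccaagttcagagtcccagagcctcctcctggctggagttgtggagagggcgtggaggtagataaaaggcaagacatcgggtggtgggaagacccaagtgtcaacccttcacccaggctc
Crot: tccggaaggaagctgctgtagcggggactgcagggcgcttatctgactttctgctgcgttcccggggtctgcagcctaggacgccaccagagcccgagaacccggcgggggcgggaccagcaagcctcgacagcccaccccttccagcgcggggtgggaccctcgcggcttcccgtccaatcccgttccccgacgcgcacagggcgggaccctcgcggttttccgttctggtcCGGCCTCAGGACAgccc

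PPARs with their partner receptor bind a direct repeat of AGGTCA with 1 base between the copies. Both strands of 300-base windows, from 250 bases before to 50 after each start, were searched for the 12 fixed letters of that repeat, with 32851 windows of 27025 genes in all. Of the 31 measured members, 26 had a window, and none held the letters exactly or with 1 mismatch, against 0.0481% and 0.644% of all genes. With up to 2 mismatches, 2 of the 26 held them, Plin2 (beginning at position -225 from the start) and Etfa (at -77), against 4.40% of all genes. Of the called members, 4 had a window, and none of those 4 held the letters with up to 3 mismatches, a looser limit met by 8 of the 26 members and by 27.3% of all genes. The closest matches of Pdk4 and Crot each differed at 4 letters. These counts describe the letters in these windows and do not bear on binding elsewhere.

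In HDAC3ΔIEC cells, 5 of the 31 members rose, namely Pdk4, Vnn1, Angptl4, Cpt2 and Hadha, and 1, Crot, fell. The other 25 were not called, a call being a limma adjusted p under 0.05. Called members made up 19.4% of the 31, and over all genes measured 0.701% were called (0.369% higher and 0.333% lower). Members were chosen with earlier results of these data known, so these shares are a description and not a test. With genes below the median signal left out, 8 of 29 members and 1.95% of the genes kept were called. At an adjusted p under 0.10, limma called 8 members, the further 2 being Acadl and Ehhadh, and 1.64% of all genes. Log2 fold changes were above 0 for 22 of the 31 members, against 53.5% of all genes. An unadjusted p under 0.05 was reached by 15 members and by 11.2% of all genes. Groups without overlap were seen for 13 members that read higher and 2 that read lower, against 8.45% and 7.70% of all genes. The median log2 fold change was 0.27 over the members and 0.01 over all genes. Leaving out single arrays moved the count of called members. Dropping HDAC3FF replicates 1, 2 and 3 in turn gave 1, 3 and 10, and dropping HDAC3ΔIEC replicates 1, 2 and 3 gave 2, 1 and 1. The share called over all genes moved as well. It was 0.0666%, 0.235% and 2.2% without HDAC3FF replicates 1, 2 and 3, and 0.235%, 0.0717% and 0.148% without HDAC3ΔIEC replicates 1, 2 and 3. The members' median was 0.17 when HDAC3FF replicate 3 was dropped.

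**Figure D1:**
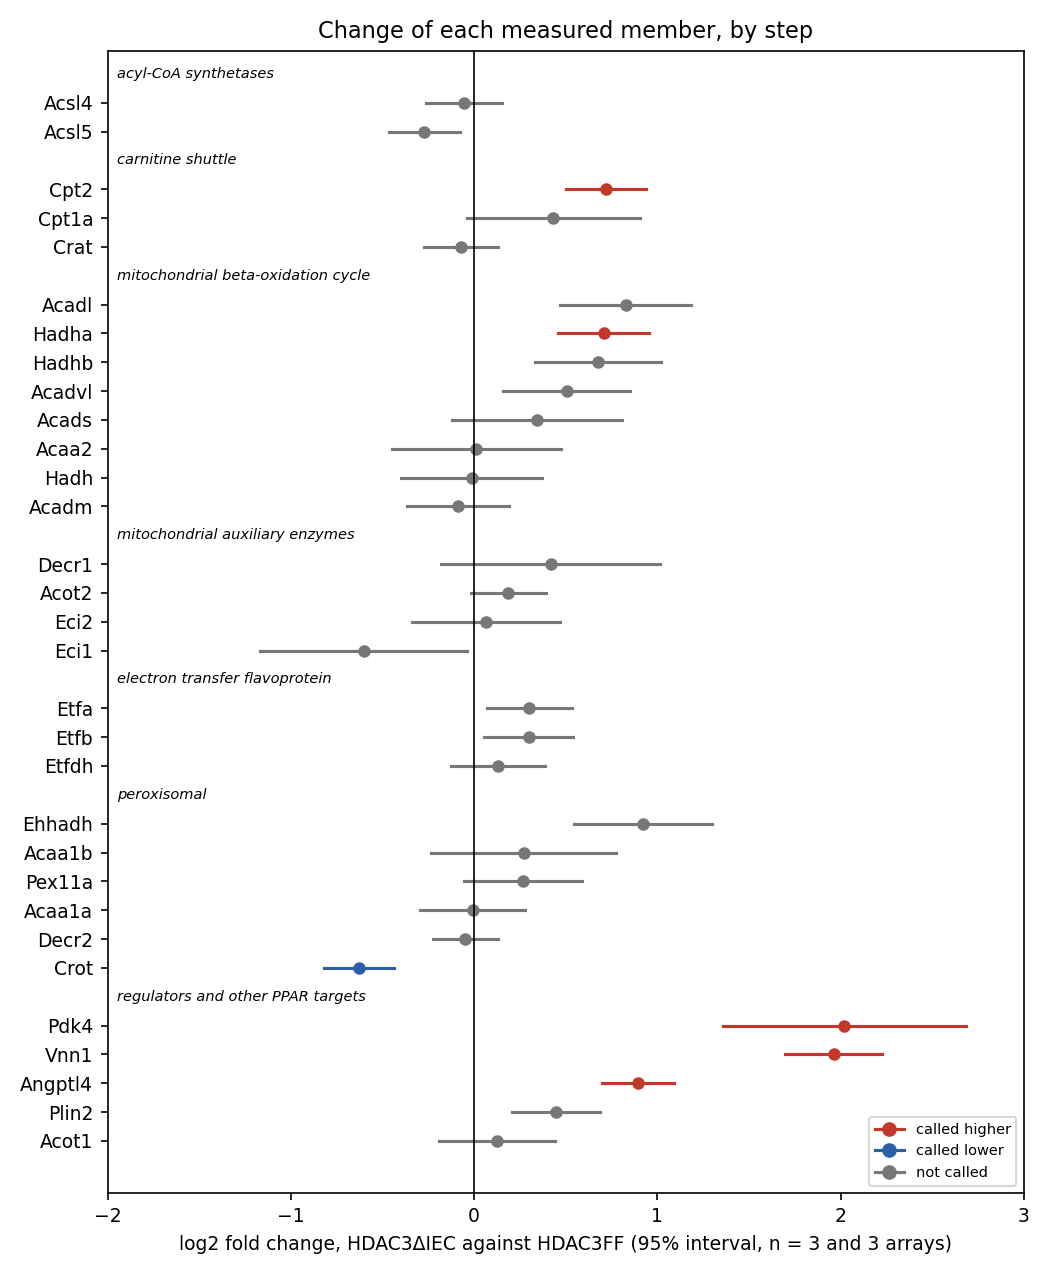
Log2 fold change of each of the 31 measured members in HDAC3ΔIEC against HDAC3FF, with limma's 95% interval (3 arrays per group), ordered by step; red points were called higher, blue lower and grey were not called. Pdk4 (2.02) and Vnn1 (1.96) lie apart to the right, and Crot (-0.63) is the 1 called member on the left.

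Fatty acids enter the route through acyl-CoA synthetases. Acsl5, the synthetase abundant in intestinal epithelium, read 8.41, 8.36 and 8.29 (log2 signal) on the HDAC3FF arrays and 8.13, 7.999 and 8.10 on the HDAC3ΔIEC arrays. Its knockout values all lay below the controls, but the change was not called (log2 fold change -0.27 ± 0.08, SE, limma adjusted p = 0.247). Acsl4, which prefers arachidonic acid, read from 5.09 to 5.30 over all 6 arrays and its groups overlapped (log2 fold change -0.06, 95% interval -0.26 to 0.15).

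Of the 3 members of the carnitine shuttle, 1 rose and the others were not called, and differences among them were not tested. Cpt2, which turns acylcarnitine back to acyl-CoA at the inner mitochondrial membrane, read 9.76, 9.88 and 9.61 in HDAC3FF and 10.46, 10.46 and 10.50 in HDAC3ΔIEC. The knockout arrays lay close together (SD 0.02, n = 3, against 0.13 in the controls) and above every control, a rise of 1.65-fold (log2 fold change 0.72 ± 0.09, SE, limma adjusted p = 0.0308). Cpt1a, the rate-limiting transferase of the outer membrane and a known PPAR target, read 8.67, 8.88 and 8.09 in HDAC3FF and 9.11, 9.01 and 8.82 in HDAC3ΔIEC. The groups overlapped, since the lowest knockout array was below the highest control, and the log2 fold change was 0.43 (95% interval -0.04 to 0.90, limma adjusted p = 0.494). Without HDAC3FF replicate 3, the lowest array of Cpt1a, it was 0.20. Crat, which handles acetyl groups, read 8.04 to 8.25 on all arrays (log2 fold change -0.07, 95% interval -0.27 to 0.13). With 1 array left out, Cpt2 was called without HDAC3FF replicate 3 (limma adjusted p = 0.0232) and not without any of the other 5, where the adjusted p ran from 0.0559 without HDAC3FF replicate 2 to 0.145 without HDAC3ΔIEC replicate 2.

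Within the mitochondrial spiral the enzymes known to act on long chains read higher in HDAC3ΔIEC. Hadha, the α subunit of the trifunctional protein, read 10.17, 10.31 and 10.06 in HDAC3FF and 10.92, 11.002 and 10.75 in HDAC3ΔIEC. All knockout arrays lay above all controls, a rise of 1.63-fold (log2 fold change 0.71 ± 0.11, SE, limma adjusted p = 0.0427). Hadhb, the β subunit, whose promoter sequence above it shares with Hadha, read 9.74, 9.81 and 9.28 and then 10.23, 10.36 and 10.27. Its groups did not overlap either and its log2 fold change was close in size (0.68 ± 0.15), but it did not pass (limma adjusted p = 0.112). Without HDAC3FF replicate 3 both were called, Hadha at 0.65 (limma adjusted p = 0.0395) and Hadhb at 0.51 (limma adjusted p = 0.0454). Both log2 fold changes were smaller there than with all arrays. Calls over the whole table also rose without that array, to 430 genes against 137 with all arrays. Hadha was not called with any other array left out, the adjusted p running from 0.0760 without HDAC3ΔIEC replicate 3 to 0.196 without HDAC3ΔIEC replicate 2, nor with p-values adjusted over all probe sets.

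Acadl, the long-chain acyl-CoA dehydrogenase, read 9.07, 9.24 and 8.65 in HDAC3FF and 9.74, 9.90 and 9.81 in HDAC3ΔIEC. The groups were apart without a call (log2 fold change 0.83 ± 0.15, SE, limma adjusted p = 0.0779), and without HDAC3FF replicate 3 it was 0.66 and passed (limma adjusted p = 0.0307). Acadvl, the very-long-chain dehydrogenase, read 8.46, 8.92 and 8.38 and then 9.02, 9.10 and 9.15, also apart, at 0.50 ± 0.15 (limma adjusted p = 0.232).

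Enzymes of the spiral known for medium and short chains had overlapping groups. Acadm, the medium-chain dehydrogenase, read 9.08, 9.14 and 8.75 in HDAC3FF and 8.87, 8.86 and 8.97 in HDAC3ΔIEC (log2 fold change -0.09, 95% interval -0.36 to 0.19). Hadh, the dehydrogenase of shorter hydroxyacyl chains, read 10.60, 10.76 and 10.27 and then 10.66, 10.67 and 10.26 (-0.01, -0.40 to 0.37). Each had a low array in its control group, and for Hadh the third knockout array was as low. Acaa2, the ketoacyl-CoA thiolase, had a log2 fold change of 0.01 (-0.45 to 0.47), and Acads, the short-chain dehydrogenase, one of 0.34 (-0.12 to 0.81), which was 0.12 without HDAC3FF replicate 3. The signs of Hadh and Acaa2 turned under another scaling of the arrays. Dividing the spiral by chain length was done after the values were seen, and the difference between long and shorter chain enzymes was not tested.

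**Figure D2:**
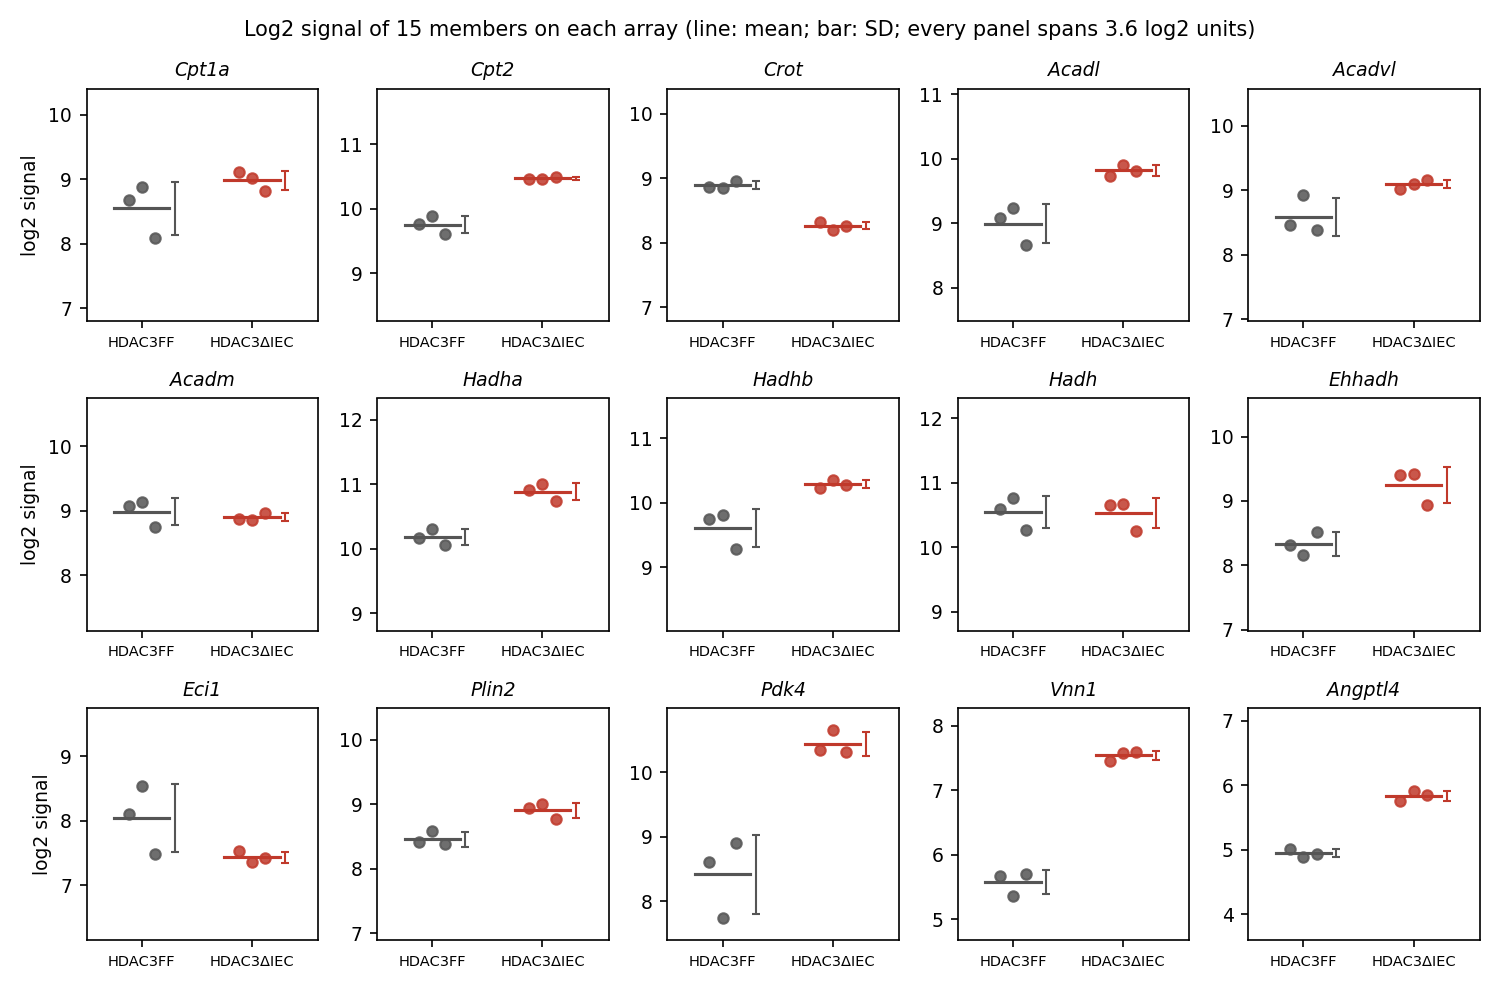
Log2 signal of 15 members on each array (points), with the group mean (line) and SD (bar) for 3 HDAC3FF and 3 HDAC3ΔIEC arrays; each panel spans the same range of log2 units. Cpt2, Acadl, Acadvl, Hadha and Hadhb have knockout points above all controls, Acadm and Hadh overlap, and Crot lies lower in the knockout.

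Auxiliary enzymes, which make unsaturated chains fit for the spiral or free them from coenzyme A, had no called member of 4 (1 at an unadjusted p under 0.05 with limma). Eci1, an isomerase that shifts double bonds, read 8.11, 8.54 and 7.48 in HDAC3FF and 7.53, 7.37 and 7.42 in HDAC3ΔIEC. The third control array lay among the knockouts, and the log2 fold change was -0.60 ± 0.24 (SE, limma adjusted p = 0.413). Without HDAC3FF replicate 3 it was -0.88 and was called (limma adjusted p = 0.0314). Decr1, the dienoyl-CoA reductase, read from 7.98 on that same control array to 9.23 on HDAC3ΔIEC replicate 3 (0.42, 95% interval -0.18 to 1.02), and its log2 fold change without HDAC3FF replicate 3 was 0.13. Eci2, another isomerase, overlapped (0.07, -0.34 to 0.47), and Acot2, a mitochondrial thioesterase, was apart by a small step (0.19, -0.02 to 0.39). Acot1, its cytosolic paralog and a known PPAR target, overlapped (0.13, -0.19 to 0.44) at signals of 4.15 to 4.65. Acot1 and Acot2 lie 21641 bases apart on chromosome 12 and are close copies, so their probe sets may read each other's transcript.

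Electrons from the dehydrogenases pass through the electron transfer flavoprotein. Its subunits Etfa and Etfb both read higher in HDAC3ΔIEC on every array, with log2 fold changes of 0.30 ± 0.10 (SE) each, and neither passed (limma adjusted p = 0.293 and 0.317). Etfdh, which hands the electrons on to ubiquinone, overlapped (0.13, 95% interval -0.13 to 0.38).

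HDAC3FF replicate 3 stood low in the mitochondrial genes. It was the lowest of the 6 arrays for 13 of the 18 mitochondrial members, and for 20.5% of all genes. Its median deviation from each gene's own mean was -0.44 log2 units over these 18 members and 0.00 over all genes, and on HDAC3FF replicates 1 and 2 the same median was -0.08 and 0.06. It was the lowest array for none of the 6 peroxisomal members, but for 13 of 36 further peroxisomal genes outside the members (36.1%). Of 24 further mitochondrial oxidation genes outside the members, it was lowest for 11 (45.8%). The median log2 fold change of the mitochondrial members was 0.30 with all arrays and 0.15 without HDAC3FF replicate 3. On the same array, the markers of stem and dividing cells had the lowest summed linear signal of the 6 arrays, 407, against 543 to 678 on the others. It was the highest HDAC3FF array for the summed markers of every other list except myeloid cells. These lists included enteroendocrine cells (4708, against 2806 and 2443), small intestinal enterocytes (7765, against 5341 and 5186) and adipocytes (580, against 318 and 264). Epithelial markers (28560, against 24080 and 24630) and goblet cell markers (46970, against 42790 and 40790) were among them as well. The part of these cells in the mitochondrial values was not tested.

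**Figure D3:**
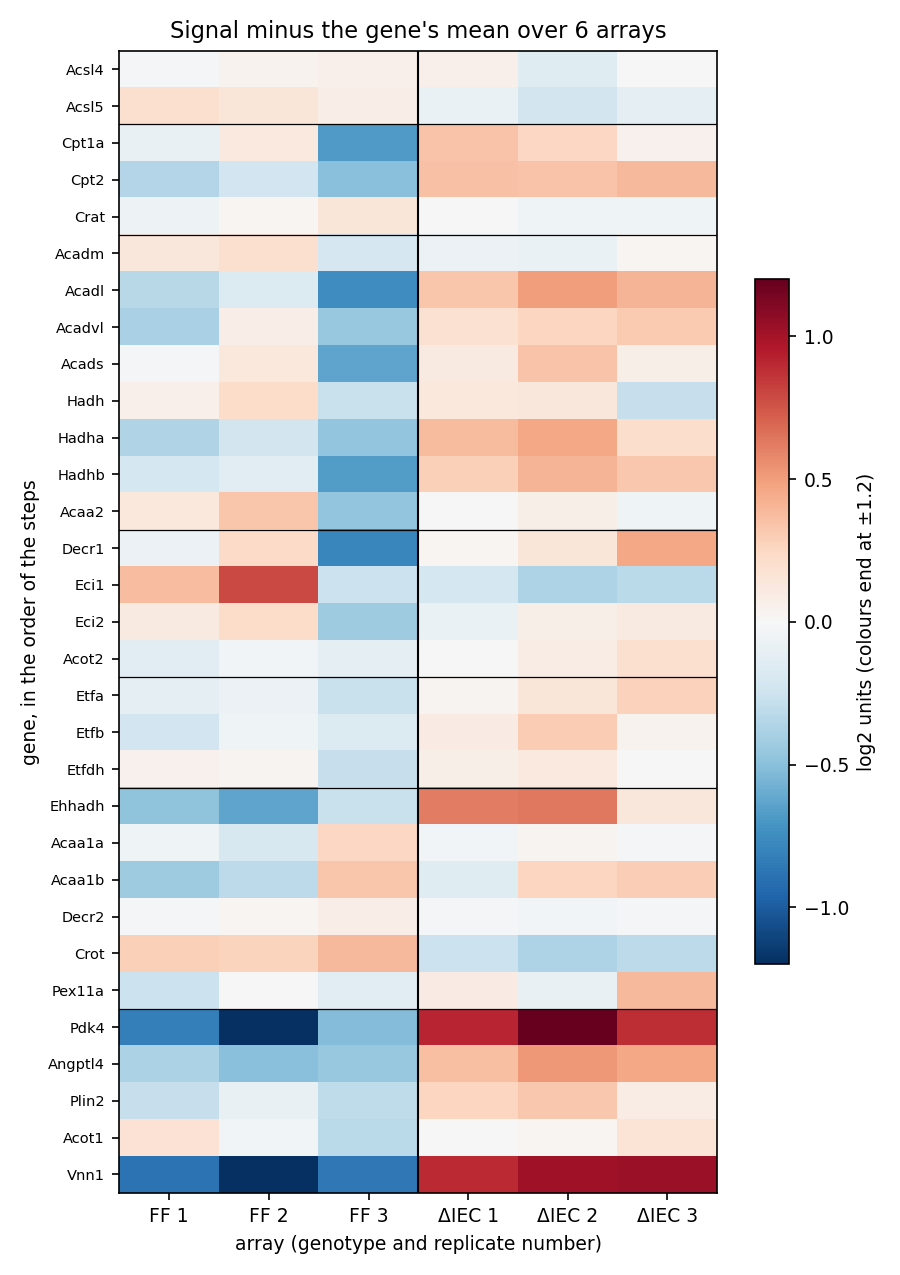
Deviation of each member's log2 signal from its own mean over the 6 arrays (colour; rows are genes in the order of the steps, columns are arrays). The third HDAC3FF column is blue through most of the mitochondrial rows and, of the peroxisomal rows, only in Ehhadh and Pex11a. Pdk4 and Vnn1 change colour between the genotypes.

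Of the 6 peroxisomal members, 1 fell and none rose. Crot, the carnitine octanoyltransferase that exports shortened chains from peroxisomes, read 8.86, 8.84 and 8.96 in HDAC3FF and 8.32, 8.20 and 8.27 in HDAC3ΔIEC. Every knockout array lay below every control, and the transcript fell to 64.8% of the control level (log2 fold change -0.63 ± 0.08, SE, limma adjusted p = 0.0311). Ehhadh, the bifunctional enzyme of the classical peroxisomal route and a known PPARα target, read 8.31, 8.16 and 8.53 and then 9.40, 9.42 and 8.93. Its groups were apart in the other direction without a call (log2 fold change 0.92 ± 0.16, limma adjusted p = 0.0652). Without HDAC3FF replicate 3, Crot was at -0.59 (limma adjusted p = 0.0289) and Ehhadh at 1.02 (limma adjusted p = 0.0333), and both were called. Crot was not called with any other array left out (0.0829 without HDAC3FF replicate 2 to 0.156 without HDAC3ΔIEC replicate 2, limma adjusted p), nor with an intensity trend in the variance prior.

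The other 4 peroxisomal members had overlapping groups. Pex11a, which promotes peroxisome division, had a log2 fold change of 0.27 (95% interval -0.05 to 0.59). The thiolases Acaa1a and Acaa1b had -0.01 (-0.29 to 0.28) and 0.27 (-0.24 to 0.77); they are close copies on chromosome 9, so their probe sets may not tell them apart, and the sign of Acaa1a turned under another scaling. Decr2, the peroxisomal dienoyl-CoA reductase, read 8.30 to 8.41 on all arrays (-0.05, -0.23 to 0.13).

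The largest changes of the members were among the regulators and the PPAR targets outside the pathway's own enzymes, where 3 of 5 rose and none fell. Pdk4, the kinase that shuts pyruvate out of mitochondrial oxidation and so favours fatty acids, read 8.60, 7.74 and 8.91 in HDAC3FF and 10.34, 10.66 and 10.31 in HDAC3ΔIEC. The knockout arrays lay well above controls that spread by more than 1 log2 unit, a rise of 4.06-fold (log2 fold change 2.02 ± 0.28, SE, limma adjusted p = 0.0366), the 24th largest rise of all genes. Vnn1, a pantetheinase anchored at the cell surface that frees pantothenate, a building block of coenzyme A, read 5.67, 5.36 and 5.70 and then 7.45, 7.57 and 7.59. Both groups were tight, and the log2 fold change of 1.96 ± 0.11 had the smallest adjusted p of the members (limma adjusted p = 0.00104).

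Angptl4, a secreted inhibitor of lipoprotein lipase, read 5.01, 4.89 and 4.93 in HDAC3FF and 5.76, 5.91 and 5.85 in HDAC3ΔIEC. It rose 1.86-fold (log2 fold change 0.89 ± 0.08, SE, limma adjusted p = 0.0109) with controls below the median signal of all genes on their arrays. Plin2, a coat protein of lipid droplets, read 8.41, 8.59 and 8.38 and then 8.94, 9.01 and 8.77, apart at 0.45 ± 0.10 without passing (limma adjusted p = 0.127).

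Left out in turn, no array ended the call of Vnn1 (limma adjusted p from 0.00123 to 0.0142). Angptl4 was no longer called without HDAC3FF replicate 1 (0.0633) or HDAC3ΔIEC replicate 2 (0.0874) or 3 (0.0524), all limma adjusted p. Pdk4 stayed called without HDAC3FF replicate 2 (0.0237) or 3 (0.0107), and not without HDAC3FF replicate 1 (0.132) or HDAC3ΔIEC replicates 1 (0.122), 2 (0.168) or 3 (0.0933), on the same basis.

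Transcripts of the receptors themselves had overlapping groups. None of the 6 genes of PPARs and retinoid X receptors was called, and none had an unadjusted p under 0.05 with limma. Ppara had a log2 fold change of -0.03 (95% interval -0.33 to 0.27), Ppard 0.22 (-0.17 to 0.62) and Pparg, the PPAR best known in colon epithelium, read 9.47, 9.65 and 9.08 in HDAC3FF and 9.45, 9.40 and 9.72 in HDAC3ΔIEC (-0.26 to 0.51). Rxra had 0.15 (-0.12 to 0.42), and Rxrb and Rxrg had 0.04 and 0.03. Of 11 measured coactivator and corepressor genes, Tbl1x, a subunit of the NCoR and SMRT complexes, rose from 8.29, 8.47 and 8.30 to 9.02, 9.06 and 8.92 (0.65 ± 0.09, SE, limma adjusted p = 0.0355). With 1 array left out it was called without HDAC3FF replicate 3 (limma adjusted p = 0.0339) and not otherwise (up to 0.172). Tbl1xr1 was apart and higher at 1.03 ± 0.21 (SE) without passing (limma adjusted p = 0.0966). Of the 11, 4 had an unadjusted p under 0.05 with limma, and 4 log2 fold changes were above 0 and 7 below.

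Of 128 other measured genes of the pathway, 3 rose and 2 fell, Tbl1x included, with a median log2 fold change of 0.05. Mgll, the lipase that frees fatty acids from monoacylglycerol, read 7.12, 7.03 and 6.84 in HDAC3FF and 9.40, 9.61 and 9.34 in HDAC3ΔIEC. It rose 5.46-fold (log2 fold change 2.45 ± 0.11, SE, limma adjusted p = 0.000645) and stayed called with each array left out. Mgll was the 1 gene called higher of 31 other known PPAR targets, and 2 were called lower. Their median log2 fold change was 0.08, with 24 above 0 and 7 below (9 at an unadjusted p under 0.05 with limma). The 2 lower were Ephx2, the soluble epoxide hydrolase, at 24.5% and Ces1d, a carboxylesterase, at 24.1% of the control level (limma adjusted p = 0.0481 and 0.0352). Their knockout arrays lay below all controls. Ephx2 and Ces1d were called with HDAC3FF replicate 3 left out (0.0205 and 0.00159) and with no other array left out (up to 0.181 and 0.166, all limma adjusted p). Of 11 further alternatives at the same threshold, Ephx2 was called in 6 and Ces1d in 9. Ephx2 was not called with quantile normalization, a robust prior or adjustment over all probe sets, among others.

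Abcd3, which carries acyl-CoA into peroxisomes, was the 1 called gene of 36 other peroxisomal genes. It read 9.82, 9.90 and 9.85 in HDAC3FF and 10.34, 10.52 and 10.68 in HDAC3ΔIEC, a rise of 0.66 ± 0.10 (SE, limma adjusted p = 0.0489). It was called with HDAC3FF replicate 3 left out (0.0473) and with no other array left out (up to 0.216, limma adjusted p). Of 11 further alternatives at the same threshold, Abcd3 was called in 5. Those without a call included an intensity trend, quantile normalization, a robust prior and adjustment over all probe sets. The 24 other mitochondrial oxidation genes had no call (7 at an unadjusted p under 0.05 with limma). The carnitine-acylcarnitine carrier Slc25a20, which links Cpt1a to Cpt2, read 9.33, 9.52 and 9.92 and then 10.40, 10.62 and 10.03, apart at 0.76 ± 0.19 without passing (limma adjusted p = 0.165), as did Ech1, a dienoyl-CoA isomerase, at 0.43 ± 0.09 and Acacb, the acetyl-CoA carboxylase whose product inhibits Cpt1a, at 0.74 ± 0.16 (limma adjusted p = 0.111 and 0.114).

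Neither the 4 ketone body genes (2 at an unadjusted p under 0.05) nor the 16 paralogs of members (3 at an unadjusted p under 0.05) held a call with limma. Oxct1, which activates ketone bodies for oxidation, was at 0.55 ± 0.13 (SE) and Slc16a6, a ketone body carrier, at -0.39 ± 0.12 (limma adjusted p = 0.125 and 0.242). Of the paralogs, Plin3 was at 0.70 ± 0.17 and Angptl6 at 0.28 ± 0.10 (limma adjusted p = 0.155 and 0.352).

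**Figure D4:**
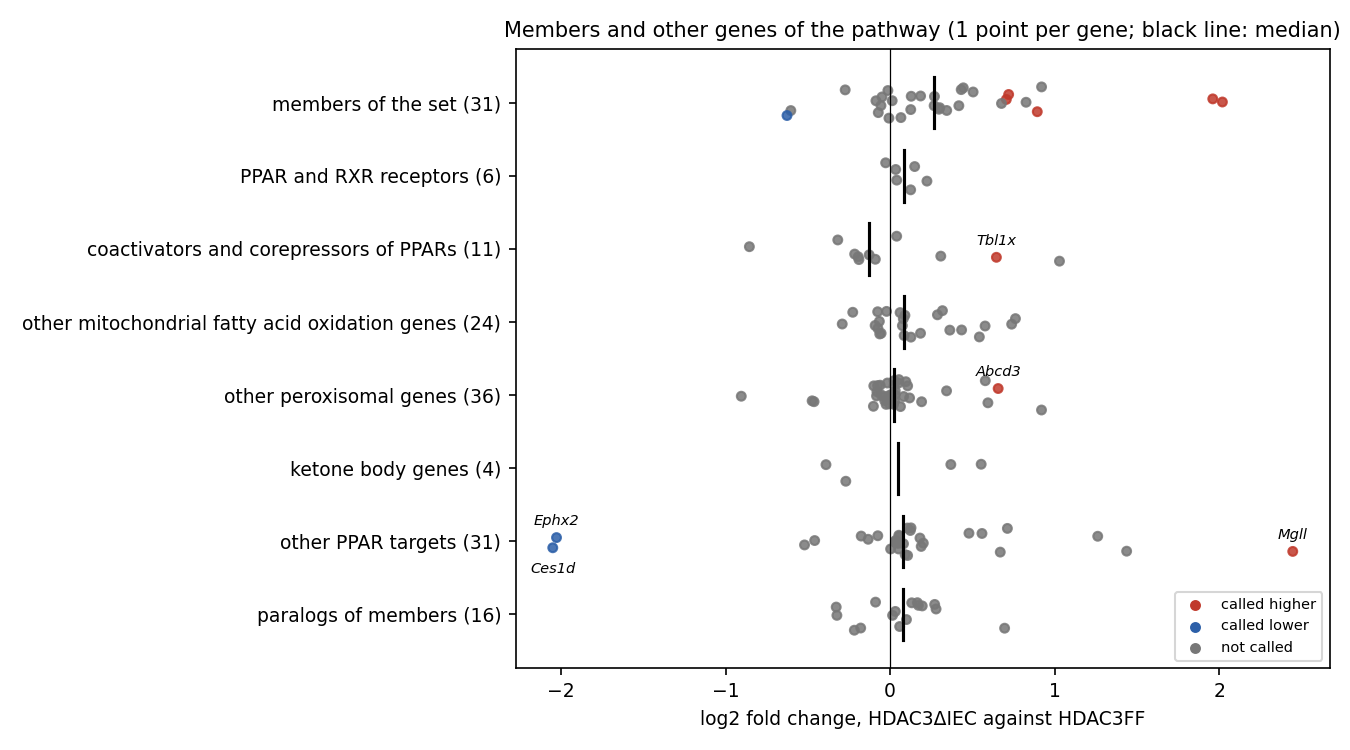
Log2 fold change in HDAC3ΔIEC against HDAC3FF of each measured gene (points) of the members and of 7 further lists of the pathway, with the number of genes in brackets and the median as a black line; red was called higher, blue lower. Mgll (2.45) lies farthest right and Ces1d (-2.05) and Ephx2 (-2.03) farthest left, and the 6 receptors cluster near 0.

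Markers of the sorted cells and of other cells were read on the same arrays. Epcam and Vil1, which define the epithelium, had log2 fold changes of -0.06 ± 0.10 and 0.18 ± 0.13 (SE), and none of 9 epithelial markers was called (4 at an unadjusted p under 0.05 with limma). Their summed linear signal was 24100 to 28600 in HDAC3FF and 29600 to 32600 in HDAC3ΔIEC, without overlap, and the brightest, Krt19 and Krt8, were at 0.30 ± 0.09 and 0.26 ± 0.08. Of 9 markers of surface colonocytes 1 rose, the sodium-proton exchanger Slc9a3 (1.78 ± 0.09, SE, limma adjusted p = 0.000645). Of these 9, 3 had an unadjusted p under 0.05 with limma, 4 were apart and higher and 2 apart and lower. Those 2 were Slc26a3 (-0.44 ± 0.08, SE, limma adjusted p = 0.0819) and Guca2a (-0.17 ± 0.08). The list's sums were 35400 to 38500 in HDAC3FF and 35700 to 41500 in HDAC3ΔIEC. Of 9 enteroendocrine markers, 2 were called, both higher, Insl5 (3.07 ± 0.28) and Pyy (2.23 ± 0.33) (limma adjusted p = 0.00923 and 0.0405). All 9 had a log2 fold change above 0, with a median of 1.84. An unadjusted p under 0.05 was reached by 7 with limma, and 6 were apart and higher. The list's summed linear signal was 2440 to 4710 in HDAC3FF and 7990 to 10100 in HDAC3ΔIEC. Of 8 small intestinal enterocyte markers none was called (6 at an unadjusted p under 0.05), 5 were apart and higher, 2 apart and lower, and the sums were 5190 to 7770 and 6340 to 10900. The part of these lists in the members' changes was not tested.

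Adipocytes also express many PPAR targets, and their defining genes Adipoq and Lep were below the median signal on all 6 arrays, as were 4 of the 6 adipocyte markers in all. The adipocyte sums were 264 to 580 in HDAC3FF and 402 to 648 in HDAC3ΔIEC, and none of the 6 was called (0 at an unadjusted p under 0.05 with limma). Most of these sums came from Cidec, a lipid droplet protein that is also in the list of other PPAR targets, which read 7.68, 7.28 and 8.86 in HDAC3FF and 8.61, 9.08 and 8.14 in HDAC3ΔIEC, with overlap (0.67 ± 0.41, SE, limma adjusted p = 0.649). Plin1, the next brightest, was at 0.01 ± 0.10. Neuron and glia markers summed to 148 to 178 and 186 to 208, with 4 of 6 below the median signal on all arrays. C1qa was the 1 called myeloid marker and fell (-1.71 ± 0.19, SE, limma adjusted p = 0.0204). Of the 10 myeloid markers, 6 had a log2 fold change above 0 and 4 below, with 2 apart and higher and 1 apart and lower. Cd68 was apart and higher (0.51 ± 0.13, SE, limma adjusted p = 0.174), and C1qb was at 0.07. Below the median of all arrays were 8 of 10 myeloid markers, 7 of 7 T and NK cell markers and 5 of 6 B and plasma cell markers. Sums of the 6 goblet cell markers were 40800 to 47000 in HDAC3FF and 43400 to 43800 in HDAC3ΔIEC. In bulk RNA, fewer cells of a type and less RNA per cell cannot be told apart. Array medians of all genes lay between 5.30 and 5.35, and the number of arrays, 3 per group, limits the precision of every value.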

How the data were processed

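RNA of 6 mice was read on 1 Affymetrix array each. The authors deposited log2 signals per probe set, as the range of the values shows; the submitters' processing notes name Affymetrix Power Tools, while its version, algorithm and normalization and the genome build are not given in the sources. Of 24939 probe sets, 21105 name 1 gene, 1254 several and 2580 none in the platform's annotation; 21022 were matched by Entrez number to RefSeq (GRCm38.p6). Per gene the probe set with the highest mean was used (19533 genes). No pair of arrays was a duplicate: the highest share of genes with the same signal on both was 0.00133.

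The genotypes were compared with limma 3.58.1 in R 4.3.3 (lmFit, eBayes, two-sided, no covariate, 3.26 prior degrees of freedom), adjusted by Benjamini-Hochberg over all 19533 genes, with calls at an adjusted p under 0.05. Errors are limma's moderated SE. The 3 arrays per genotype are biological replicates, per the series design text.

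Members and lists were chosen with earlier results of these data known. Named are all members, Hdac3, called genes of the pathway lists and the receptors, and the 2 smallest p of lists without a call. Of marker lists the called and the 2 brightest genes are named, of which those bearing on the members are printed. Named beyond that rule, after their values were seen, are Slc25a20, Tbl1xr1, Slc26a3, C1qb, Epcam, Vil1, Adipoq and Lep. Tested on simulated data (10 runs of 3 against 3 arrays, 200 of 19533 genes changed), 29.0% of changes of 0.5 and 93.0% of changes of 1 log2 unit were called. The simulated noise was independent between genes and arrays and drawn with each gene's moderated SD. It held no deviation shared by many genes of 1 array, as seen on HDAC3FF replicate 3. These shares may therefore be too high for the real arrays. Alternatives were a replicate block, other variance priors, array weights, scalings, filters on dim genes, other probe set rules, another threshold and leaving out each array. Protein identity between paralogs was planned and not computed. Figures were drawn with matplotlib 3.10.9 and tables made with Python 3.11.15.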

Additional observations from a re-analysis of the deposited data

How the results depend on the processing

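The 6 called members kept their direction in the 18 alternatives run; with groups apart, no left-out array can turn it. Vnn1 passed in all except with ordinary unmoderated statistics. Called members numbered 6 with all arrays (5 higher, 1 lower), and 1 to 10 with 1 array left out (1 to 8 higher, 0 to 2 lower). With ordinary unmoderated statistics 0 members and 0 genes were called (15 members and 1858 genes at an unadjusted p under 0.05), and with an intensity trend 0 lower members. The replicate number is not known to mark pairs: same-numbered arrays had deviations from the group means correlated at -0.02, -0.07 and -0.20. With it as a replicate block 1 member was called (1 higher, 0 lower), 12 genes in all and 1 of the other pathway genes.

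Over all genes 137 were called, 90 with adjustment over all probe sets, 357 with array weights, 321 at an adjusted p under 0.10, and 13 to 430 with 1 array left out. Of the other pathway genes 5 were called, 3 each with adjustment over all probe sets, quantile normalization or a robust prior, 8 with array weights, 9 at an adjusted p under 0.10, 0 with ordinary unmoderated statistics and 1 to 9 with 1 array left out. The median of the regulators was 0.89, and 1.43 with genes below the median signal left out, which drops Acot1. In all, 6 members that were not called turned sign in some alternative (Acsl4, Hadh, Acaa2, Eci2, Acaa1a and Acot1). The deposited values carry no detection call, so background limits dim members such as Acot1 and Angptl4 to an unknown degree.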
